A study of Mus musculus with 6 samples.

Results

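Cdx2, Elf5, Eomes, Tfap2c, Tfap2a, Tead4, Hand1, Ascl2, Ets2 and Krt7, 10 genes that control or mark the trophoblast, were followed in mouse induced pluripotent stem cells (iPSCs) with and without miR-34a. The genes were chosen by name, and all 10 were found among the 41388 gene rows of the deposited count table. The 6 poly(A) RNA-seq libraries came from 3 miR-34a-/- (knockout) and 3 wild-type iPSC lines of the C57BL/6 strain. Fibroblasts of littermate embryos at embryonic day 13.5 were reprogrammed with retroviral mouse Oct4, Sox2 and Klf4, so both genotypes carry these vectors, and each line was grown from a picked colony on feeders of irradiated fibroblasts. The question is how far the levels of these genes differ when the microRNA is missing. The sources do not say whether lines of a genotype share an embryo, and p-values then measure only the spread between these lines.

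The trophoblast is the outer lineage of the early embryo, which forms the placenta, and pluripotent stem cells normally keep it closed. TEAD4, held in check by the Hippo pathway, switches on Cdx2 in the outer cells of the morula, and Cdx2, Eomes, Elf5, Tfap2c and Ets2 then keep trophoblast stem cells dividing under fibroblast growth factor. Ascl2 and Hand1 act later, Ascl2 in the spongiotrophoblast and Hand1 in giant cells. Tfap2a and the keratin gene Krt7 are read in trophoblast and in other epithelia.

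The sequences that bear on the comparison are the microRNA itself and the start regions of members that fell or rose. They are printed 5′ to 3′, and the microRNA and promoters are credited to RefSeq (GRCm38.p6, the same assembly as mm10). The mature strand that the knockout lacks lies on chromosome 4 at chr4:150068473-150068494, plus strand, and its seed (bases 2 to 8) is in capitals.
mmu-miR-34a-5p: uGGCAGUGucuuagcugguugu
A match to this seed, CACTGCC, was looked for on the sense strand of the longest 3′ UTR that GENCODE M21 annotates for each member. It was found once, in Eomes, at base 590 after the stop codon (chr9:118485590-118485616, plus strand, match in capitals).
Eomes seed match: ctagctagtactCACTGCCttcaattc
Of 13409 tested genes with an annotated 3′ UTR, 17.2% hold this match.
Promoters (250 bases before to 50 after a start site) were listed for 7 of the 10 members. The 3 printed here belong to Cdx2 and Eomes, which fell, and Ets2, which rose. Motifs searched on both strands are in capitals: the octamer ATGCAAAT bound by OCT4 (in 1.74% of 32851 promoters), the AP-2 motif GCCNNNGGC (16.6%), the TEAD motif GGAATG (14.7%), the T-box motif AGGTGTGA (1.28%) and the TATA motif TATATAA (3.24%). The Cdx2 promoter (chr5:147307200-147307499, minus strand) holds an octamer that begins 147 bases before the start site and an AP-2 match that begins 16 bases before it, and these do not overlap.
Cdx2 promoter: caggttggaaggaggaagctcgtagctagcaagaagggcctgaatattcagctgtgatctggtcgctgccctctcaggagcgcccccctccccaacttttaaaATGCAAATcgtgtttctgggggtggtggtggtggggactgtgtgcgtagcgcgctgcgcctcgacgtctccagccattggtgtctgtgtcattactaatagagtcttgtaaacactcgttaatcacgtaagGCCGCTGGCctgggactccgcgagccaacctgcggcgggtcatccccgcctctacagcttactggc
The Eomes promoter (chr9:118477939-118478238, plus strand) holds the TATA motif, which begins 30 bases before the start site.
Eomes promoter: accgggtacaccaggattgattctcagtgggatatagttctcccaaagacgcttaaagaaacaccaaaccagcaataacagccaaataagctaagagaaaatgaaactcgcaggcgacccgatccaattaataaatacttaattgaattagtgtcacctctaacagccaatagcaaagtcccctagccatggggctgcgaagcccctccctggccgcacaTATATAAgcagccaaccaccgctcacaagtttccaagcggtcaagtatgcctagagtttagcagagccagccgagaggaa
The Ets2 promoter (chr16:95702157-95702456, plus strand) holds none of the 5 motifs and is 71.7% G and C, against 57.3% for Cdx2 and 47.3% for Eomes.
Ets2 promoter: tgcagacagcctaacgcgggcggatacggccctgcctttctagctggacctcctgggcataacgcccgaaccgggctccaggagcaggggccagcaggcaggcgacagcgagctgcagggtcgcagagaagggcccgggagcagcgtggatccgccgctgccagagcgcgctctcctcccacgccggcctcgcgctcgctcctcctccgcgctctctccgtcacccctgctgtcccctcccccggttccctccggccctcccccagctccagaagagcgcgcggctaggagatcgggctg
Among the other listed promoters, Krt7 holds the AP-2 motif at 2 places and a promoter of Elf5 holds the TEAD motif. These matches describe the letters only.

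The row of Mir34a itself, whose unprocessed transcript a poly(A) library hardly samples, had 1, 0 and 0 counts in the knockout and 2, 0 and 0 counts in the wild-type libraries, so it does not check the labels. Libraries held 7935323 to 27933272 gene counts, and knockout replicate 3 and wild-type replicate 2 were the shallowest. A count of 3 corresponds to 0.107 to 0.378 CPM (counts divided by the library's gene total and scaled to 1000000) across libraries, and levels below that were not resolved. The labelled cell type was checked on its markers, and the summed level of 11 pluripotent cell markers was 8830 to 9410 CPM in knockout and 7250 to 7500 CPM in wild-type lines. Pou5f1, the gene of Oct4, and Sox2 are among the 11, and their counts do not separate vector transcripts from those of the cell's own genes. The Y-linked genes Ddx3y, Eif2s3y, Kdm5d and Uty had 0 to 6 counts each in knockout libraries and 33 to 436 in wild-type libraries. The X-linked Xist was at 4.46 to 5.71 CPM in knockout and 3.02 to 3.12 CPM in wild-type lines. The Y-linked level, and any sex-linked difference that goes with it, therefore cannot be told apart from the genotype in any result. This holds for the 10 members too, though all are autosomal.

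Trophoblast regulators went in both directions. Of the 10 members, 9 passed the filter on low counts (0.564 CPM in at least 3 libraries) and 1, Elf5, did not. Cdx2, Eomes and Tfap2c were called lower in the knockout, and Hand1, Ets2 and Ascl2 higher, in the quasi-likelihood test of edgeR, with p-values adjusted by Benjamini-Hochberg over 14717 genes and called under 0.05. Tead4, Krt7 and Tfap2a were not called. Of all genes tested, 50.5% were called, 26.5% higher and 24.0% lower, and nothing particular to the members is read from their own count of calls. The genotypes did not overlap in 8 of the 9 tested members, 5 with every knockout line above and 3 with every knockout line below, where 55.9% of all tested genes did not overlap. Cdx2 reached the filter level in the 3 wild-type libraries and in no knockout library, and Hand1 in the 3 knockout libraries and in wild-type replicates 1 and 3. Summed over the 10 genes, the level was 205 to 219 CPM in knockout and 271 to 283 CPM in wild-type lines, and most of that sum was Tfap2c and Tead4. The median absolute log2 fold change of all called genes was 0.48, and the 6 called members ranged from 0.49 (Ascl2) to 1.89 (Hand1) in size.

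**Figure D1:**
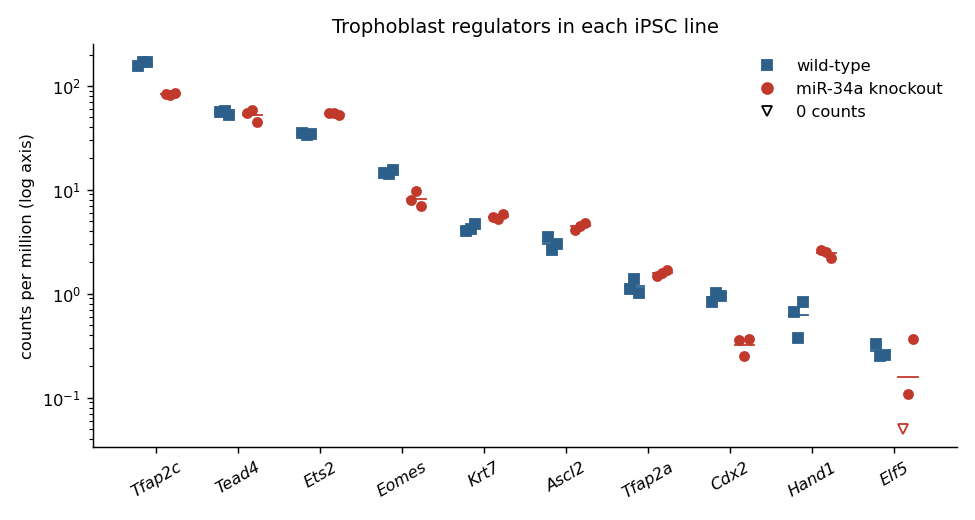
Level of each trophoblast regulator in each line, in CPM on a log axis; squares are wild-type and circles knockout lines, short lines are group means, and the open triangle is a library with 0 counts. Tfap2c lies at 82.0 to 85.1 CPM in knockout and 155 to 168 CPM in wild-type lines, while the genotypes overlap for Tead4 and Elf5.

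**Figure D2:**
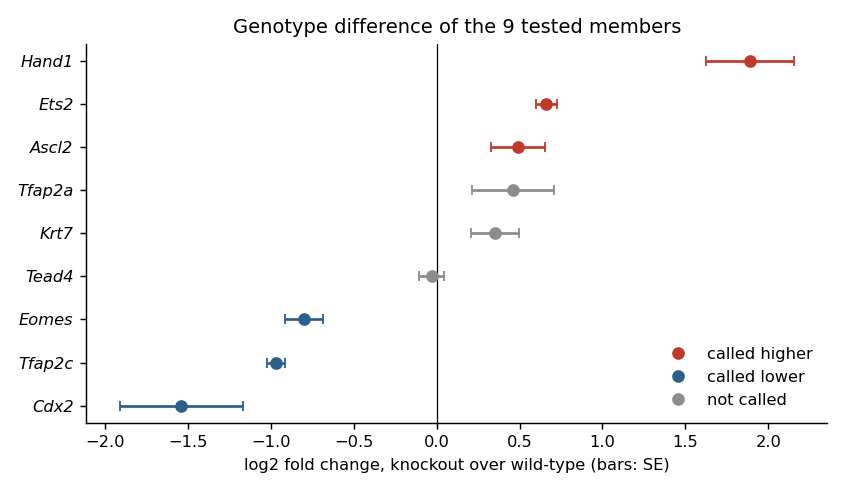
Log2 fold change (knockout over wild-type) of the 9 tested members with its standard error, coloured by the edgeR call. Hand1 stands at 1.89 and Cdx2 at -1.54, the members with the fewest counts among those called.

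Tead4, the transcription factor at the head of the trophoblast programme, was not called, and its genotypes overlapped. Tead4 (ENSMUSG00000030353, chromosome 6, 128224288 to 128300823, mm10, minus strand) was at 55.2, 58.2 and 45.3 CPM in knockout replicates 1 to 3 and at 56.3, 57.5 and 51.9 CPM in wild-type replicates 1 to 3. The ranges overlap, and the lowest value belongs to the shallow knockout replicate 3. The log2 ratio of knockout to wild-type was -0.03 (with SE 0.0755, adjusted p = 0.75 by edgeR), and without knockout replicate 3 it was 0.04 (adjusted p = 0.59 by edgeR). Per length of exon, Tead4 made up 26.4% ± 2.4 of the TEAD family's reads in knockout lines and 27.2% ± 2.0 in wild-type lines (SD, n = 3 each), behind Tead2 at 49.5% and 46.6%. Tead1 and Tead2 were not called, and Tead3 fell from 12.01 ± 1.13 CPM in wild-type to 8.75 ± 0.553 CPM in knockout lines (log2 ratio -0.44, adjusted p = 0.0032 by edgeR).

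Hippo pathway genes changed in both directions. Of 14 tested genes whose products restrain or assist TEAD proteins, 4 rose, 6 fell and 4 were not called. The number that fell was 4 with DESeq2 and 7 with limma voom, and Lats1, one of the 6, overlapped between the genotypes. Over all tested genes, 26.5% were called higher and 24.0% lower. With 3 target genes of YAP and TEAD the list of 17 had a median log2 fold change of -0.06 against 0.01 over all tested genes. Yap1, a coactivator of TEAD proteins, fell from 228 ± 9.50 CPM in wild-type to 173 ± 5.07 CPM in knockout lines (log2 ratio -0.40, adjusted p = 3.2e-06 by edgeR). Its relative Wwtr1, which encodes TAZ, rose from 33.8 ± 1.18 CPM in wild-type to 49.8 ± 2.68 CPM in knockout lines (log2 ratio 0.58, adjusted p = 6.3e-07 by edgeR). The kinase gene Lats2, whose product inactivates YAP and TAZ, rose from 9.87 ± 1.42 CPM in wild-type to 23.6 ± 1.23 CPM in knockout lines (log2 ratio 1.31, adjusted p = 1.9e-09 by edgeR). The target genes, Ctgf, Cyr61 and Ankrd1, were all called higher, by log2 fold changes of 0.39, 0.78 and 1.00. Fibroblasts also express these 3 genes. Of 18 tested fibroblast and feeder markers 12 fell and 3 rose, and the part of these cells in the target gene levels was not tested.

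Cdx2, which commits cells to the trophectoderm, was near the detection limit in both genotypes and lower in the knockout. Cdx2 (ENSMUSG00000029646, chromosome 5, 147300805 to 147307270, minus strand) had 7, 7 and 3 counts in knockout replicates 1 to 3 and 20, 8 and 15 counts in wild-type replicates 1 to 3. As CPM these were 0.354, 0.251 and 0.364 against 0.828, 1.01 and 0.954, so every knockout line lay below every wild-type line. Summed over lines the ratio of knockout to wild-type was 0.338, with an exact 95% counting interval of 0.181 to 0.605. The fitted log2 ratio was -1.54 (with SE 0.371, adjusted p = 0.0019 by edgeR). Cdx2 passed the filter on low counts through the wild-type lines alone. Its relative Cdx1 was more abundant, at 6.62 against 0.411 CPM per kilobase of exon in wild-type lines, and was not called (adjusted p = 0.12 by edgeR).

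Eomes, a T-box factor needed by trophoblast stem cells and also read in the primitive streak, fell. Eomes (ENSMUSG00000032446, chromosome 9, 118478212 to 118486132, plus strand) was at 7.90, 9.67 and 7.04 CPM in knockout replicates 1 to 3 and at 14.6, 14.2 and 15.3 CPM in wild-type replicates 1 to 3. The genotypes did not overlap, and wild-type lines were 1.74-fold higher (log2 ratio -0.80 with SE 0.115, adjusted p = 1.2e-05 by edgeR). This is the member whose 3′ UTR holds the seed match, as do 17.2% of tested genes with an annotated 3′ UTR. A link of the site to the Eomes level was not tested. The primitive streak gene T, of the same T-box family, fell from 7.20 ± 1.68 CPM in wild-type to 1.31 ± 0.462 CPM in knockout lines (log2 ratio -2.55 with SE 0.234, adjusted p = 7.7e-08 by edgeR). Of 8 tested primitive streak and mesoderm markers 4 fell, 1 rose and 3 were not called, where 24.0% of all tested genes fell and 26.5% rose. Of the 4, Fgf8 did not reach the filter level in every knockout library. The 1 that rose was Tbx6. The number of these markers called higher differed from 1 in 8 of 16 alternatives. Among those were DESeq2 and the omission of knockout replicate 2, wild-type replicate 1 or wild-type replicate 3. The summed level of all 13 listed markers was 21.98 to 22.23 CPM in knockout and 31.6 to 35.2 CPM in wild-type lines. Their part in the Eomes result was not tested.

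Elf5, which locks in the trophoblast fate and is kept methylated in embryonic cells, was near 0 counts. Elf5 (ENSMUSG00000027186, chromosome 2, 103411688 to 103450989, plus strand) had 0, 3 and 3 counts in knockout replicates 1 to 3 and 8, 2 and 4 counts in wild-type replicates 1 to 3. The 0 in knockout replicate 1 allows a level of up to 0.152 CPM. The genotypes overlapped, and the ratio of knockout to wild-type counts was 0.366 with a counting interval of 0.115 to 1.02, so no difference was detectable at this depth.

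Among listed genes that write, erase or assist DNA methylation, Dnmt3b had the log2 ratio of largest size. This de novo methyltransferase gene fell from 521 ± 28.1 CPM in wild-type to 167 ± 11.3 CPM in knockout lines (log2 ratio -1.64, adjusted p = 7.3e-14 by edgeR). Of the 8 genes on this list 3 rose, 1 fell and 4 were not called, where 26.5% of all tested genes rose and 24.0% fell. Methylation itself, that of Elf5 included, was not measured, and a link of these genes to the Elf5 level was not tested.

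Tfap2c, which encodes the AP-2γ factor of trophoblast stem cells and germ cells, was the most abundant member in both genotypes and fell. Tfap2c (ENSMUSG00000028640, chromosome 2, 172549593 to 172558622, plus strand) was at 82.8, 82.0 and 85.1 CPM in knockout replicates 1 to 3 and at 155, 168 and 168 CPM in wild-type replicates 1 to 3. The lines of a genotype lay close together, and the genotypes were far apart. Wild-type lines were 1.96-fold higher (log2 ratio -0.97 with SE 0.0565, adjusted p = 4.7e-11 by edgeR).

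Tfap2a, the family member of neural crest and skin as well as trophoblast, was low and was not called. Tfap2a (ENSMUSG00000021359, chromosome 13, 40715302 to 40738376, minus strand) was at 1.47, 1.58 and 1.70 CPM in knockout replicates 1 to 3, from 29, 44 and 14 counts. It was at 1.12, 1.39 and 1.02 CPM in wild-type replicates 1 to 3, from 27, 11 and 16 counts. Every knockout line lay above every wild-type line, but the difference did not pass (log2 ratio 0.46 with SE 0.249, adjusted p = 0.13 by edgeR). Per length of exon, Tfap2c made up 96.7% ± 0.21 of the AP-2 family's reads in knockout lines and 98.5% ± 0.11 in wild-type lines (SD, n = 3 each), and Tfap2a 1.38% ± 0.086 and 0.529% ± 0.08. Tfap2b, a further relative, had 0 counts in the 3 knockout libraries and 9, 2 and 7 counts in the wild-type libraries. A noncoding gene annotated on the opposite strand of Tfap2a had 0 or 1 count per library.

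Ets2, which supports trophoblast stem cell growth and responds to ERK signalling, rose. Ets2 (ENSMUSG00000022895, chromosome 16, 95702075 to 95721051, plus strand) was at 54.7, 54.6 and 52.6 CPM in knockout replicates 1 to 3 and at 34.9, 33.5 and 34.1 CPM in wild-type replicates 1 to 3. No line overlapped the other genotype, and the knockout was 1.58-fold higher (log2 ratio 0.66 with SE 0.0628, adjusted p = 5.1e-08 by edgeR). The related Ets1 was at 8.75 ± 0.719 and 7.93 ± 0.712 CPM and was not called (adjusted p = 0.22 by edgeR). Of the epithelial ETS genes related to Elf5, Elf3 fell from 60.5 ± 0.341 CPM in wild-type to 48.4 ± 6.00 CPM in knockout lines (log2 ratio -0.29, adjusted p = 0.0025 by edgeR). Ehf was called higher (log2 ratio 2.46, adjusted p = 0.00013 by edgeR) but passed the filter through the knockout alone, with 3, 2 and 3 counts in the wild-type libraries.

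Hand1, a basic helix-loop-helix factor of giant cells, extraembryonic mesoderm and heart, rose from a low level. Hand1 (ENSMUSG00000037335, chromosome 11, 57828705 to 57832818, minus strand) had 52, 70 and 18 counts in knockout replicates 1 to 3 and 16, 3 and 13 counts in wild-type replicates 1 to 3. These were 2.63, 2.51 and 2.19 CPM against 0.662, 0.378 and 0.827 CPM, and the genotypes did not overlap. Over lines the count ratio was 3.74 (exact 95% counting interval 2.53 to 5.68), and the fitted log2 ratio was 1.89 (with SE 0.264, adjusted p = 7.8e-06 by edgeR). Of 10 endoderm markers 7 were tested and called higher, 6 of them at the filter level in every library and Sox17 only in the knockout libraries. The share called higher over all tested genes was 26.5%. The summed level of the 10 was 34.6 to 36.2 CPM in knockout and 11.1 to 15.2 CPM in wild-type lines. Gata4 and Pdgfra, which mark primitive endoderm, and Cubn, of the visceral endoderm, were among the 7 called higher. Foxa2 was not tested and lay lower in every knockout line, at 0.152, 0.465 and 0.364 CPM against 0.497, 0.504 and 0.827 CPM in wild-type lines. The later endoderm markers Afp and Ttr had 0 to 2 counts per library. Their part in the Hand1 result was not tested.

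Ascl2, an imprinted gene of the Kcnq1 domain that maintains the spongiotrophoblast, was called higher, but the call was not steady. Ascl2 (ENSMUSG00000009248, chromosome 7, 142966829 to 142969264, minus strand) was at 4.10, 4.51 and 4.74 CPM in knockout replicates 1 to 3 and at 3.48, 2.65 and 2.99 CPM in wild-type replicates 1 to 3. Every knockout line lay above every wild-type line (log2 ratio 0.49 with SE 0.163, adjusted p = 0.017 by edgeR). The adjusted p was 0.064 without knockout replicate 2, 0.053 and 0.054 without wild-type replicates 2 and 3, 0.056 with library GC trends removed in edgeR and 0.11 with DESeq2. Phlda2 and Cdkn1c, growth-restraining placental genes of the same imprinted domain, fell, with log2 fold changes of -0.75 and -0.46 (adjusted p = 4.7e-08 and 0.0051 by edgeR).

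Krt7, a keratin that marks trophoblast and simple epithelia, was not called, while the simple epithelial keratins Krt8, Krt18 and Krt19 fell. Krt7 (ENSMUSG00000023039, chromosome 15, 101411043 to 101430313, plus strand) was at 5.42, 5.19 and 5.83 CPM in knockout replicates 1 to 3 and at 3.97, 4.16 and 4.64 CPM in wild-type replicates 1 to 3. The genotypes did not overlap, yet the adjusted p was just above the threshold (log2 ratio 0.35 with SE 0.146, adjusted p = 0.052 by edgeR). It was 0.048 with limma voom and 0.041 without wild-type replicate 3, and 0.24 with DESeq2. Krt8 fell from 119 ± 13.4 CPM in wild-type to 52.0 ± 3.72 CPM in knockout lines and Krt18 from 88.3 ± 7.04 to 39.6 ± 2.50 CPM (log2 fold changes -1.19 and -1.15, adjusted p = 7e-10 and 1.2e-10 by edgeR). Krt19 fell from 20.3 ± 2.16 CPM in wild-type to 10.1 ± 0.971 CPM in knockout lines (log2 ratio -0.97, adjusted p = 5.4e-07 by edgeR). Differences in direction between Krt7 and these keratins were not tested.

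Ranked by CPM per kilobase of exon in the wild-type lines, the order of the members was Tfap2c at 44.6, Tead4 at 15.4, Ets2 at 5.91, Eomes at 3.54, Ascl2 at 1.87, Krt7 at 0.604, Cdx2 at 0.411, Hand1 at 0.312, Tfap2a at 0.239 and Elf5 at 0.0475. Only Cdx2 with Hand1 and Hand1 with Tfap2a overlapped between neighbours over the 3 wild-type lines. In the knockout, Tfap2c at 22.7, Tead4 at 14.7 and Ets2 at 9.34 CPM per kilobase again led, and no neighbours overlapped. Ascl2 stood above Eomes there, at 2.74 and 1.97 CPM per kilobase, and Hand1 at 1.22 stood above Krt7 at 0.777. Cdx2, at 0.143 CPM per kilobase, was second to last in the knockout, ahead of Elf5.

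Profiles across the 6 libraries, compared as mean-centred log2 CPM with 10308 other genes of at least 5 CPM, mostly followed genotype. The nearest to Tfap2c were Patj and Pak1, with log2 fold changes of -1.01 and -1.04 and distances of 0.112 and 0.117. Those nearest to Ets2 were Zrsr2 and Elk1, both on the X chromosome, at distances of 0.064 and 0.066. Nearest to Tead4 were Rnpep and the Hippo gene Amotl1 at 0.067 and 0.072, and nearest to Eomes were A130010J15Rik and Baz1a at 0.162 and 0.169. Within a distance of 0.2 lay 243 genes for Tead4, 178 for Ets2, 27 for Tfap2c and 4 for Eomes.

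Counted together, the relatives of the members by family (12 tested) had 1 gene called higher, 6 lower and 5 not called. Their median log2 fold change was -0.27, and 26.5% of all tested genes were called higher and 24.0% lower. The 6 were Krt8, Krt18, Krt19, T, Elf3 and Tead3. The keratins are counted again in the mixed trophoblast list that follows, and T is also counted among the primitive streak and mesoderm markers. Other trophoblast transcription factors also went both ways. Of 20 tested, 6 rose, 4 fell and 10 were not called, with a median log2 fold change of 0.04. These counts lie near the shares over all tested genes, and nothing particular to this list is read from them. Esrrb, shared by trophoblast stem cells and naive pluripotent cells, rose from 766 ± 6.21 CPM in wild-type to 1042 ± 31.6 CPM in knockout lines (log2 ratio 0.45, adjusted p = 7.7e-07 by edgeR). Fosl1, an AP-1 gene of giant cells, rose from 7.11 ± 0.652 CPM in wild-type to 18.9 ± 1.52 CPM in knockout lines (log2 ratio 1.42, adjusted p = 3.7e-09 by edgeR). The trophoblast factor genes Gata2 and Gata3 were not called (adjusted p = 0.39 and 0.27 by edgeR).

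A mixed list of trophoblast signalling, surface, keratin and imprinted genes went in both directions. Of 15 tested, 5 rose, 8 fell and 2 were not called, with a median log2 fold change of -0.23. Of all tested genes, 26.5% were called higher and 24.0% lower. The 5 that rose were Fgf4, Bmp4, Furin, Pcsk6 and Plet1. The 8 that fell were Fgfr2, Lifr, Krt8, Krt18, Krt19, Peg10, Phlda2 and Cdkn1c. Fgfr2, the receptor through which trophoblast stem cells read FGF4, was at 9.23 to 11.04 CPM in knockout and 31.3 to 33.0 CPM in wild-type lines (log2 ratio -1.67, adjusted p = 9.5e-12 by edgeR). Fgf4, which the pluripotent cells themselves make, rose from 240 ± 3.22 CPM in wild-type to 329 ± 7.56 CPM in knockout lines (log2 ratio 0.46, adjusted p = 3.2e-07 by edgeR). Peg10, a paternally expressed retrotransposon-derived gene needed for the placenta, fell from 372 ± 42.9 CPM in wild-type to 151 ± 8.85 CPM in knockout lines (log2 ratio -1.29, adjusted p = 1.3e-10 by edgeR).

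Genes of differentiated placental cells were largely silent. Of 20, 9 had 0 counts in every library, among them the placental lactogens Prl3d1 and Prl3b1 and the spongiotrophoblast marker Tpbpa, and 5 were tested. Flt1, a VEGF receptor gene also read in endothelium, and Plac8 fell, with log2 fold changes of -1.49 and -1.70 (adjusted p = 2.4e-08 and 2.9e-08 by edgeR). Slco2a1, a prostaglandin transporter gene, rose by 0.81, and the fusion gene Synb was not called.

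**Figure D3:**
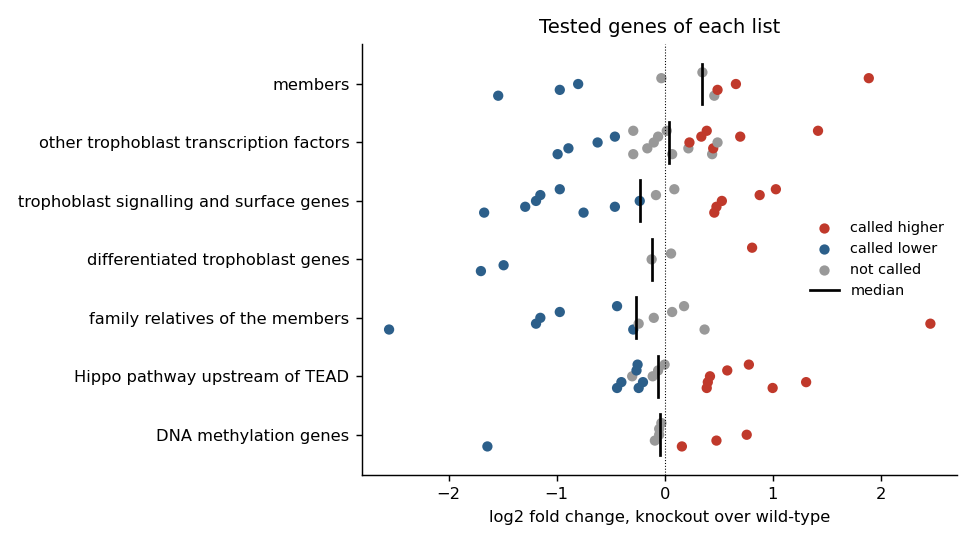
Log2 fold change (knockout over wild-type) of every tested gene of the members and 6 companion lists, coloured by the edgeR call, with the median as a black bar. The medians lie between -0.27 (family relatives of the members) and 0.35 (the members), and each list holds genes on both sides of 0.

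Markers of other cell types differed between the genotypes beside the members. Fibroblast and feeder markers were mostly lower, and the summed level of all 20 was 2830 to 3160 CPM in knockout and 3190 to 3590 CPM in wild-type lines. None of the 20 was at 0 in every library, though Lum and Fap had 0 counts in the knockout lines and 0 to 3 in the wild-type lines. Surface ectoderm markers, which Tfap2a and Krt7 can accompany, summed to 132 to 139 CPM in knockout and 214 to 232 CPM in wild-type lines. Cldn6 and Grhl2, the 2 called lower, had log2 fold changes of -1.42 and -0.79. Krt14, the 1 called higher, had a log2 fold change of 1.64, and 2 were not called. All 9 matched 2-cell stage markers were called higher, at sums of 113 to 128 against 0.621 to 1.26 CPM, and all 9 passed the filter through the knockout alone. Of 11 pluripotent cell markers 9 rose, 1 fell and 1 was not called, and the 9 include Pou5f1 and Sox2, which the vectors also carry. For comparison with each of these lists, 26.5% of all tested genes were called higher and 24.0% lower. The part of these cells in the members' differences was not tested, and in bulk libraries fewer cells of a type and less RNA per cell cannot be told apart.

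**Figure D4:**
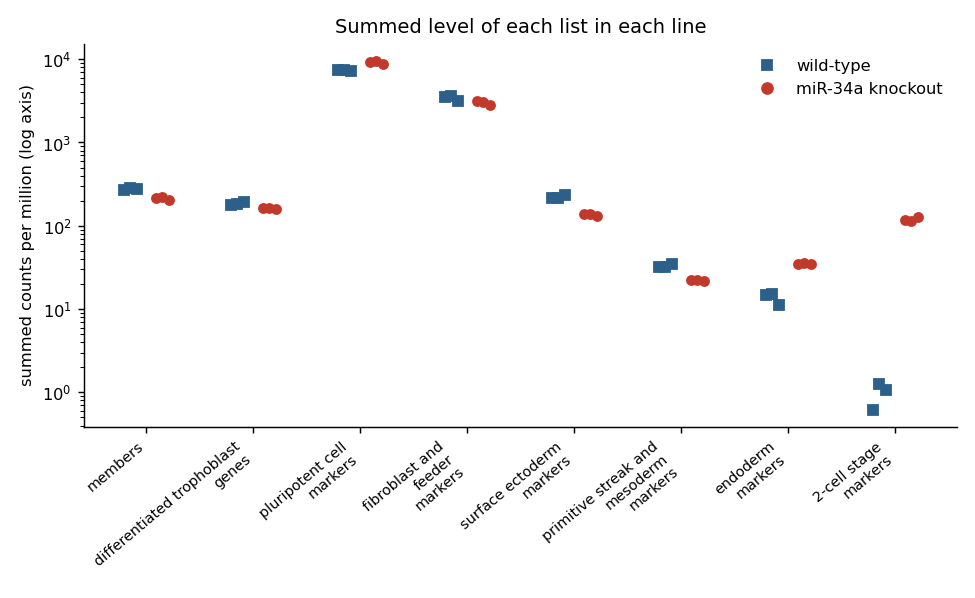
Summed CPM of the members and 7 marker lists in each line, on a log axis; squares are wild-type and circles knockout lines. The genotypes do not overlap for any of the 8 lists, and the gap is widest for the 2-cell stage markers.

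**Figure D5:**
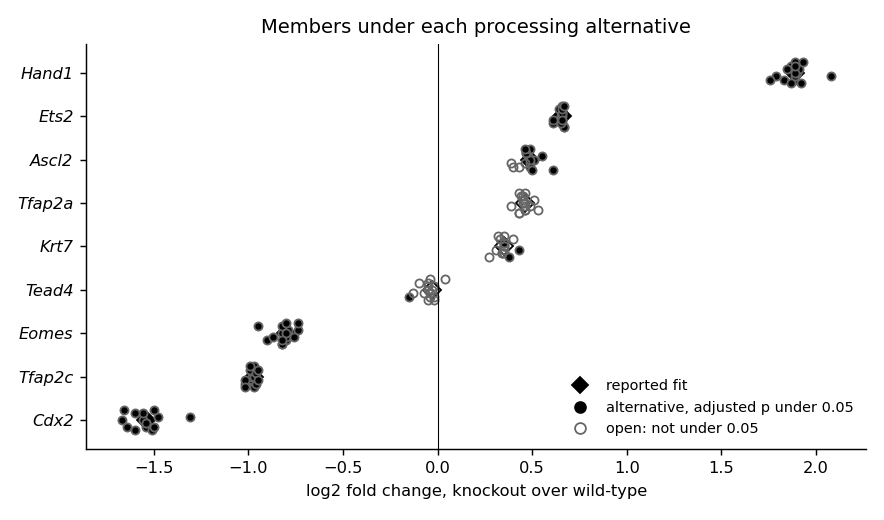
Log2 fold change of each tested member under the reported fit (diamond) and each alternative (circles), filled where the adjusted p is under 0.05. Cdx2, Tfap2c, Eomes, Ets2 and Hand1 stay filled in every alternative that tested them, and Tead4 is the only member with values on both sides of 0. Cdx2 passed the filter through the wild-type lines alone.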

How the data were processed

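The authors deposited raw counts per feature for each library. Per the submitters' processing notes the tools were featureCounts 1.4.5 and TopHat2 2.0.11, and the build was mm10. Counting options (strand, multi-mapping reads) are not given in the sources, so reads of antisense genes may not be separated. The table has 41388 gene rows, of which 40254 matched a GENCODE M21 symbol, and 902 repeat families, left out here. Of a second table, 6 columns could be tied to no sample by name and were not used. CPM is counts over a library's gene total. The test was that of edgeR 4.0.16 under R 4.3.3 (filterByExpr, TMM factors, glmQLFit with robust = TRUE, glmQLFTest, two-sided, no covariate), with Benjamini-Hochberg adjustment over 14717 genes. SE is the absolute log2 ratio over the root of F. Intervals are exact (Clopper-Pearson) and, like floors, cover counting error only. No library pair agreed within sampling noise (chi-square per degree of freedom at least 2.251). The alternatives were other scalings, DESeq2 1.42.0, limma voom (limma 3.58.1), other filters, a replicate block, removal of GC trends, robust = FALSE and each library left out. The members and lists were chosen with earlier results of these data known. Named genes are the members, up to 3 genes per list, taken by smallest p, and the 2 nearest profiles of members of at least 5 CPM. Other names, and the motifs, were chosen after the values were seen.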

Additional observations from a re-analysis of the deposited data

How the results depend on the processing

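Members called numbered 6 in the reported fit and 5 to 7 over the alternatives, and all genes called 7433 and 5918 to 8010. Cdx2, Eomes, Tfap2c, Ets2 and Hand1 kept their direction and their call in each alternative that tested them. Of these, Cdx2 passed the filter through the wild-type libraries alone, and Hand1 did not reach the filter level in wild-type replicate 2. Cdx2 was not tested with at least 1 CPM in 3 libraries. Leaving out each library in turn gave Tead4 values of -0.1 to 0.04 (reported -0.03), the only one above 0 being without knockout replicate 3, and was called lower at -0.15 (edgeR adjusted p = 0.026) with the replicate block and library GC trends removed together. The replicate block alone gave 7 members called, Krt7 being added at 0.38 (edgeR adjusted p = 0.04), and 7833 genes. Deviations of same-numbered libraries correlated at 0.232, 0.004 and 0.23 for numbers 1 to 3, and those of differently numbered libraries at -0.263 to 0.134. Numbers 1 and 3 thus gave the highest values, but number 2 did not, and not every library correlated best with its own number. The numbers were therefore not taken to pair the lines in the reported fit. Ascl2 had log2 fold changes of 0.39 to 0.61 and passed in 10 of 16 alternatives, and Krt7 passed in 3 of 16. Counts of 1 called gene in a companion list moved in 8 of 16 alternatives for mesoderm markers called higher, in 3 for pluripotent markers called lower, in 2 for DNA methylation genes called lower, and in 1 each for family relatives and surface ectoderm markers called higher. The causes were not tested. Depth limits Cdx2 and Elf5 most, with 60 and 20 counts over all libraries.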
